A study of Tupaia belangeri with 6 samples.

Results

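The genes described here encode proteins of the synaptic vesicle and of the presynaptic release machinery in the prefrontal cortex (PFC) of the tree shrew (Tupaia belangeri). The list holds 42 genes, named for their role in the nerve terminal, and a gene was taken as found where a row of the abundance tables carried exactly its name. Of these, 31 had such a row, among 95863 measured loci of which 22608 carried a gene name. The study sequenced polyadenylated RNA from the PFC of 6 adult animals, 3 females (numbers 1, 3 and 4) and 3 males (numbers 1, 4 and 5), and compared the sexes. The labels name no treatment, and the sample overview of the study lists the males as older than the females, so sex and age cannot be told apart. Levels are in TPM, a share of the library's transcripts after scaling to length, so levels of different genes can be set beside each other.

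At a nerve terminal, neurotransmitter is loaded into vesicles by transporters, and synapsins tether the vesicles in a reserve near the release site. Proteins of the active zone, such as RIM, Munc13, ELKS and Piccolo, dock and prime vesicles beside the calcium channels. The SNARE proteins on the vesicle and on the plasma membrane then zip together, complexins clamp and assist them, and calcium binding to a synaptotagmin sets off fusion. NSF and its SNAP adaptors take the SNARE complexes apart afterwards, and dynamin and amphiphysin help to take the membrane back up. In mammalian cortex most of these genes belong to families whose members are used by different neurons.

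The tissue label could be checked against marker genes. Of 10 markers of cortical excitatory neurons, 8 had a row and all 8 were above 0 in every animal, with CAMK2A, a kinase abundant at excitatory synapses, at a mean of 1570.1 TPM. Of 5 markers of the hindbrain and spinal cord, the 2 with a row summed to 0.0147 to 0.854 TPM. All 6 libraries were used throughout. Loci to which no strand was assigned took 2.30% to 3.33% of the TPM in the 3 females and male 4, 5.16% in male 1 and 7.88% in male 5. Since these are bulk samples, fewer cells of a type and less RNA per cell cannot be told apart. No strand-specific protocol is named in the sources used here, so reads from a gene and from a locus on the opposite strand cannot be told apart either, and 26 of the 31 genes overlapped such a locus.

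The genes found were among the more abundant of this tissue. Their median level over the 31 genes was 177.7 TPM, that of SYNGR3, a synaptogyrin of the vesicle membrane. Mean levels reached 1 TPM or more for 28 genes, 10 TPM or more for 25, and 100 TPM or more for 18. Those 28 genes were also above 0 in every animal, and the other 3, SYT11, RIMS1 and DNM1, were at or near 0. Together the 31 genes took 1.30% to 1.54% of the library, or 13243 ± 1014 TPM (SD, n = 6).

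**Figure D1:**
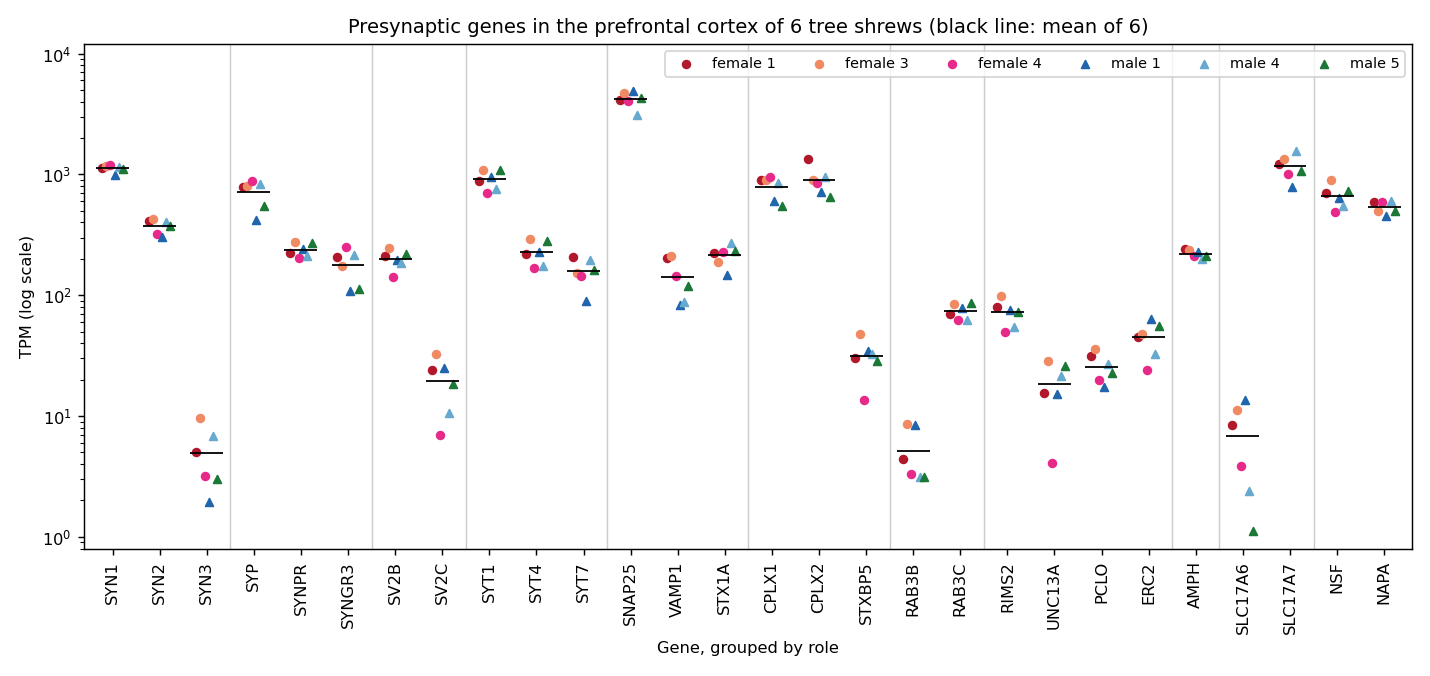
TPM on a log axis of the 28 presynaptic genes with a mean of 1 TPM or more, grouped by role with grey lines between roles; each point is 1 animal (circles, 3 females; triangles, 3 males) and each black line the mean of 6. SNAP25 lies above all other genes in every animal, and the points of SLC17A6, UNC13A, SYN3 and SV2C are spread most widely on this axis.

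SNAP25, the plasma membrane SNARE that supplies a pair of helices to the fusion complex, stood above every other gene of the list. In females 1, 3 and 4 it was at 4133, 4675 and 4061 TPM, and in males 1, 4 and 5 at 4861, 3088 and 4311 TPM. It was transcribed from chromosome 9 of the TS_3.0 assembly, 86618036 to 86726781 on the plus strand, and its mean of 4188 TPM ranked 8 among all measured loci. Alone it made up 24.6% to 39.4% of the summed level of the 31 genes, the lowest share in male 4 and the highest in male 1. Its lowest value, in male 4, lay above the highest value of the next gene, SLC17A7, at 1569 TPM.

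Below SNAP25 most genes overlapped in range with the next. When the 28 genes at 1 TPM or more were ordered by mean, only 3 of the 27 neighbouring pairs had ranges over the 6 animals that did not overlap. These were SNAP25 and SLC17A7, NAPA and SYN2, and SYN2 and SYNPR. Ranges can overlap although the order is the same within each animal, as SYN1 was above SYT1 in all 6 animals. The genes that followed SNAP25, each overlapping in range with the next, were SLC17A7 (mean of 1165 TPM), SYN1 (1120.0 TPM), SYT1 (912 TPM), CPLX2 (898 TPM), CPLX1 (791 TPM), SYP (712 TPM), NSF (667 TPM) and NAPA (537 TPM).

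Among the other SNARE proteins, STX1A, syntaxin of the plasma membrane, was at 224, 189 and 226 TPM in females 1, 3 and 4 and at 147, 269 and 232 TPM in males 1, 4 and 5. VAMP1, a vesicle SNARE, was at 202, 213 and 143 TPM in the females and at 83.3, 88.0 and 119 TPM in the males. All 3 females lay above all 3 males for VAMP1, whereas the sexes overlapped for STX1A. No row used here carried the name of VAMP2, the vesicle SNARE of most forebrain synapses, so the 2 vesicle SNAREs could not be compared.

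SYN1, synapsin I, led the synapsins and varied least of the genes found, with a coefficient of variation of 6.73% over the 6 animals. Its levels were 1130.2, 1168 and 1194 TPM in females 1, 3 and 4 and 980.5, 1146 and 1101 TPM in males 1, 4 and 5. It is the one gene found that was placed on the assembled X chromosome, at 36628254 to 36753169 on the minus strand. This locus spans 2.05 times the length of the gene in the RefSeq annotation of another tree shrew assembly, TupChi_1.0, and overlaps ARAF and TIMP1 on the opposite strand. SYN2 was at 413, 426 and 320.2 TPM in the females and at 305, 405 and 377 TPM in the males. SYN3 was at 1.95 to 9.60 TPM, lowest in male 1 and highest in female 3. SYN1 exceeded SYN2 by 2.74 to 3.73 times in every animal.

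The tetraspan proteins of the vesicle membrane were led by SYP, synaptophysin, the classical marker of presynaptic terminals. Its row lies on a contig that was not assigned to a chromosome here, and whether this contig belongs to X was not tested. SYP was at 789, 799 and 881 TPM in females 1, 3 and 4 and at 417, 834 and 549 TPM in males 1, 4 and 5. Males 1 and 5 thus lay below the other 4 animals, with male 4 among the females. SYNPR, synaptoporin, the paralog of SYP, was at 204 to 278 TPM, and the SYP to SYNPR ratio ran from 1.72 in male 1 to 4.31 in female 4. SYNGR3 was at 206, 173 and 251 TPM in the females and at 108, 215 and 113 TPM in the males, so that males 1 and 5 were again the lowest animals. These are also the 2 libraries with the highest share of strandless loci.

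Males 1 and 5 were the lowest 2 animals for CPLX1 and CPLX2 as well. CPLX1, a complexin that binds the assembled SNARE complex, was at 904, 894 and 954 TPM in females 1, 3 and 4 and at 597, 850.4 and 545 TPM in males 1, 4 and 5. CPLX2 was at 1345, 892 and 842 TPM in the females and at 715, 946 and 650.5 TPM in the males. The strandless loci were also left out and the rest rescaled to its own total. CPLX1 was then at 949 to 1021 TPM in the females and at 663, 911 and 618 TPM in the males. SYP was at 831 to 943 TPM in the females and at 463, 894 and 623 TPM in the males. This rescaling changes all genes of a library by the same factor, which was too small to alter which animals were lowest. A link of these low values to the strandless loci was therefore not tested. The 2 complexins were close to each other, with a CPLX2 to CPLX1 ratio of 0.882 to 1.49. CPLX2 was the higher in 4 of the 6 animals, and this was the one family with 2 or more rows in which no single gene led in every animal.

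SV2 proteins are transporter-like glycoproteins of the vesicle that bind synaptotagmin. SV2B was at 213, 244 and 141 TPM in females 1, 3 and 4 and at 196, 186 and 219 TPM in males 1, 4 and 5, and exceeded SV2C by 7.48 to 20.4 times. SV2C was at 23.9, 32.6 and 6.92 TPM in the females and at 24.9, 10.6 and 18.5 TPM in the males. Female 4 was lowest for both. No row used here carried the name of SV2A.

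SYT1, the calcium sensor of fast synchronous release, led the synaptotagmins found. It was at 883, 1079.8 and 705 TPM in females 1, 3 and 4 and at 951, 755 and 1096 TPM in males 1, 4 and 5, from a locus on chromosome 6 at 74103226 to 74742374 on the plus strand. SYT4, a synaptotagmin induced by neuronal activity, was at 167 to 290.1 TPM, and SYT7, a slow high-affinity sensor, at 89.1 to 206 TPM. SYT1 was above both in every animal. The other fast sensors of the list, SYT2 and SYT5, had no row of that name.

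Of the active zone genes, RIMS2 was highest among the rows with the exact name, at 80.0, 98.9 and 49.8 TPM in females 1, 3 and 4 and at 76.1, 54.5 and 72.9 TPM in males 1, 4 and 5. ERC2, the ELKS protein CAST, was at 44.8, 48.0 and 24.1 TPM in the females and at 63.6, 32.9 and 55.5 TPM in the males. PCLO, the scaffold Piccolo, was at 17.5 to 35.5 TPM. The active zone genes of this list under their exact names were therefore at mean levels of 72.0 TPM or less. The SNARE proteins found of this list were higher, with a lowest mean of 141 TPM for VAMP1. This contrast holds for this list only. In a longer presynaptic list, RIMS3, a relative of RIMS2, was at 155 TPM and the SNARE VAMP4 at 53.4 TPM. With UNC13Ali1, a row named as a gene-like copy, added to it, UNC13A had a mean of 156 TPM, above that of VAMP1. BSN, UNC13B and PPFIA3 had no row of that name.

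Small GTPases of the RAB3 family mark vesicles that are ready to dock. RAB3C was at 69.6, 84.9 and 62.1 TPM in females 1, 3 and 4 and at 77.7, 62.3 and 85.7 TPM in males 1, 4 and 5. RAB3B was at 4.42, 8.56 and 3.29 TPM in females 1, 3 and 4 and at 8.36, 3.16 and 3.11 TPM in males 1, 4 and 5. RAB3C exceeded RAB3B by 9.30 to 27.6 times. Rows with the name of RAB3A, the main form in brain, or of its effector RPH3A were not found. STXBP5, tomosyn, which binds syntaxin in place of the vesicle SNARE, was at 13.6 to 47.3 TPM, lowest in female 4 and highest in female 3.

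Vesicular glutamate transporters were represented almost wholly by SLC17A7, VGLUT1, the form of most cortical excitatory neurons. SLC17A7 was at 1222, 1344 and 1003 TPM in females 1, 3 and 4 and at 783, 1569 and 1067 TPM in males 1, 4 and 5. SLC17A6, VGLUT2, a form typical of thalamic and other subcortical neurons, was at 8.43, 11.3 and 3.85 TPM in the females and at 13.7, 2.41 and 1.11 TPM in the males. SLC17A7 exceeded SLC17A6 by 57.4 times in male 1 and by 958 times in male 5.

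SLC17A6 had the widest spread of the 28 genes at 1 TPM or more, with a coefficient of variation of 75.2%. Its 3 highest animals were females 1 and 3 and male 1, and these were also the 3 highest animals for SV2C and RAB3B. Of the 4 striatal projection neuron markers with a row, RGS9, PDE10A and PENK had the same 3 highest animals. DRD1 did not, at 4.83 TPM in male 4 and 4.02 TPM in male 1. These 3 highest animals were not particular to striatal markers. They were shared by the neuronal genes STMN2 and NEFM and the oligodendrocyte genes MOG and CLDN11, but not by MAP2 and MAG. The share of all loci with these 3 highest animals was not computed. RGS9, a G protein regulator of striatal neurons, was at 48.0, 43.7 and 1.52 TPM in females 1, 3 and 4 and at 54.6, 0.355 and 0.392 TPM in males 1, 4 and 5. Of 8 striatal markers listed, the 4 with a row summed to 293 to 326 TPM in females 1 and 3 and male 1 and to 125 to 156 TPM in the other 3 animals. SLC18A3, the vesicular acetylcholine transporter, was at 2.56, 3.26 and 2.96 TPM in those 3 animals and at 0 in the others. Markers of the thalamus, all 4 with a row, summed to 27.8 to 40.2 TPM and did not divide the animals in this way, with 31.3 TPM in male 1 against 36.8 TPM in male 4 and 39.1 TPM in male 5. Of the 4 only GBX2 did so, which was at 0.899, 0.911 and 2.201 TPM in females 1 and 3 and male 1 and at 0 in the others. The part of such cells in the levels of SLC17A6, SV2C and RAB3B was not tested.

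NSF, the ATPase that separates spent SNARE complexes, was at 707, 894 and 492 TPM in females 1, 3 and 4 and at 632, 549.7 and 728 TPM in males 1, 4 and 5. NAPA, alpha-SNAP, which recruits NSF to the complex, was at 449.7 to 604 TPM, and its paralog NAPB had no row of that name. AMPH, amphiphysin, an adaptor of endocytosis, was at 241, 235 and 211 TPM in the females and at 228, 198 and 211 TPM in the males, with a coefficient of variation of 7.55%.

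**Figure D2:**
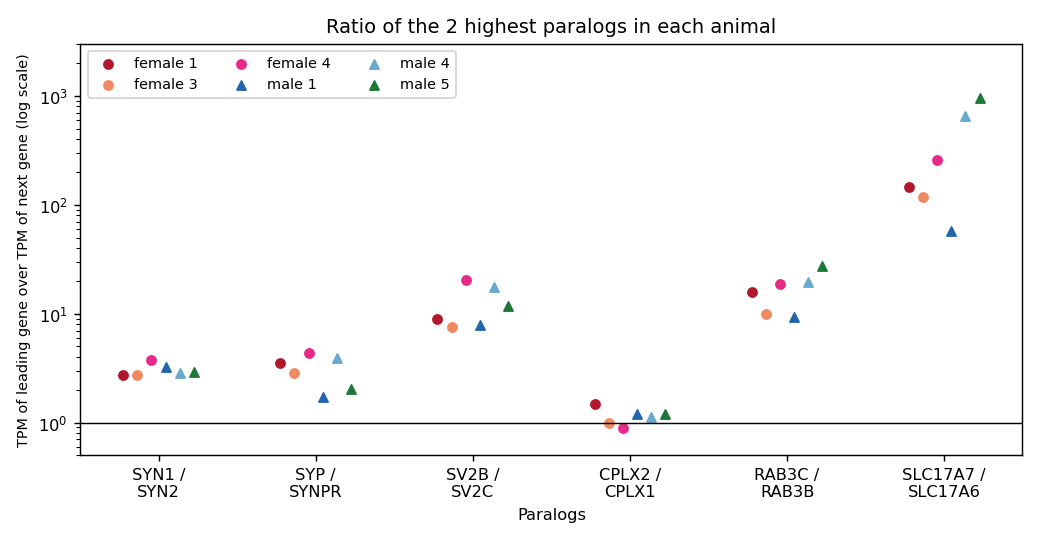
Ratio of the TPM of the leading gene to that of the next gene on a log axis for 6 families, 1 point per animal (circles, females; triangles, males); the black line marks equal levels. Each ratio lies above 1 in all 6 animals except that of CPLX2 to CPLX1, which runs from 0.882 to 1.49.

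Of 14 paralog families, 8 had 2 or more rows, and in 7 of these the same gene led in all 6 animals. For the SYT4 with SYT11 and the RIMS families this leader depended on how rows were named. The annotation names gene-like copies with the ending li and a number, and rows of that kind carried most of the signal for 4 genes of the list. SYT11, a relative of SYT4, was at 0 in 5 animals and at 0.182 TPM in female 3, while the row SYT11li1 on chromosome 7 was at 417 to 622 TPM. DNM1, the dynamin that cuts endocytic vesicles free in neurons, was at 0 in every animal from a row of 1844 bases, against a gene of 52361 bases in RefSeq, while DNM1li1 on chromosome 2 was at 1186 to 1421 TPM. RIMS1, a docking and priming protein, was at 0.495 TPM or less from a row on chromosome 3, 91238705 to 91249392, that lies within RIMS1li1 on the opposite strand, and RIMS1li1 was at 118 to 187 TPM. UNC13A, the priming factor Munc13-1, was at 15.4, 28.4 and 4.08 TPM in females 1, 3 and 4 and at 15.3, 21.6 and 25.9 TPM in males 1, 4 and 5, from a row that spans 0.459 times the RefSeq gene, while UNC13Ali1 on a contig was at 100.1 to 164 TPM.

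**Figure D3:**
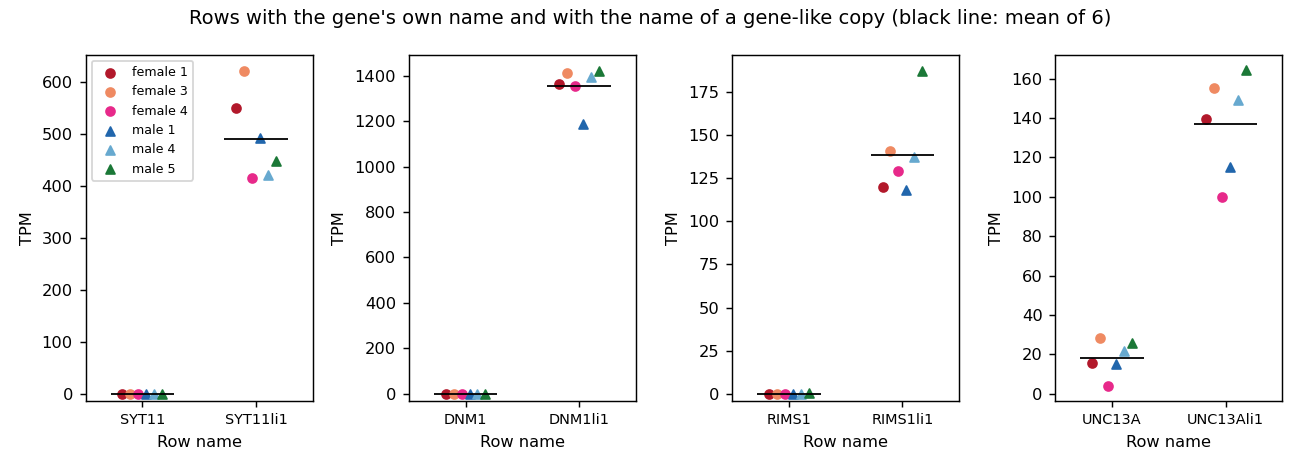
TPM of the rows that carry the exact gene name (left in each panel) and of the row named for its gene-like copy (right) for SYT11, DNM1, RIMS1 and UNC13A; points are the 6 animals and black lines their means. In all 4 panels the copy lies above the named row in every animal, with means of 492, 1355, 139 and 137 TPM for the copies.

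With these 4 rows added to the gene of that name, SYT11 exceeded SYT4 by 1.61 to 2.53 times and RIMS1 exceeded RIMS2 by 1.42 to 2.60 times, so that the leader changed in both families. The summed level of the list was then 14259 to 17176 TPM, with DNM1 at a mean of 1355 TPM, above SYN1 in each of the 6 animals. Whether such a row is the gene itself or a separate copy was not tested.

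No row used here carried the name of 11 listed genes, which were not analysed here. These were SYNGR1 and SV2A of the vesicle membrane, the sensors SYT2 and SYT5, the vesicle SNARE VAMP2, RAB3A and its effector RPH3A, the active zone proteins UNC13B, BSN and PPFIA3, and the adaptor NAPB. All 11 are named in the RefSeq annotation of TupChi_1.0. Their levels in the PFC remain unmeasured in these tables as read here.

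The sexes were compared with limma on log2(TPM + 1), with the Benjamini-Hochberg adjustment and a threshold of 0.1. Of the 31 genes, 29 passed the low-value filter of 0.1 TPM in 3 or more animals, SYT11 and DNM1 being the exceptions. None of the 29 passed the adjusted threshold. Among all loci tested, 0.0143% of autosomal, 0.134% of X-linked and 0% of contig loci passed it. The study's own test on counts with DESeq2 called more genes on the autosomes and on X at the same threshold. At an unadjusted p under 0.05 there was 1 gene of the 29, against 5.03% of all 30238 loci tested, and in 2 genes the sexes did not overlap, against 9.86% of all loci. Both shares of the list are near or below the background. Without male 4 the count at an unadjusted p under 0.05 was 4, against 9.43% of all loci. It was 2 without female 3, female 4 or male 1, against 4.23%, 4.42% and 7.55% of all loci in these fits.

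The gene with the smallest p was VAMP1, whose values are given above. Its mean was 186 ± 37.4 TPM in females and 96.9 ± 19.6 TPM in males (SD, n = 3 each). The difference of female minus male was 0.93 on the log2(TPM + 1) scale with an SE of 0.22, and the adjusted p by limma was 0.929, with a p of 0.00251 before adjustment. Markers of oligodendrocytes, the myelinating cells, had the same order of the sexes. Of 9 such markers 6 had a row, and their sum ran from 680 to 887 TPM over the 3 females and from 218 to 507 TPM over the 3 males. For MAG, OLIG1 and OLIG2 the lowest female lay above the highest male, whereas the sexes overlapped for MBP, MOG and CLDN11. Of all loci tested, 9.86% did not overlap, in either direction. Markers of other cells, such as TUBB3 of neurons and CLDN5 of endothelium, also had all females above all males. None of the 6 oligodendrocyte markers passed the adjusted threshold, and their part in the VAMP1 difference was not tested.

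SYNGR3 and CPLX1 followed in order of p. The difference was 0.59 with an SE of 0.28 for SYNGR3 and 0.49 with an SE of 0.24 for CPLX1, each with an adjusted p by limma of 0.929. In CPLX1 the 3 females lay above the 3 males, whereas in SYNGR3 male 4 lay between females 1 and 4. Both values depended on single males. Without male 4 the difference was 0.91 for SYNGR3 and 0.68 for CPLX1, with an adjusted p by limma of 0.428 and 0.429. With males 1 and 5 left out together, which was chosen after seeing the data and removes the lowest animals of both genes, it was -0.049 and 0.11, with male 4 as the one male left. SYP differed by 0.51 with an SE of 0.28 and overlapped between the sexes.

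**Figure D4:**
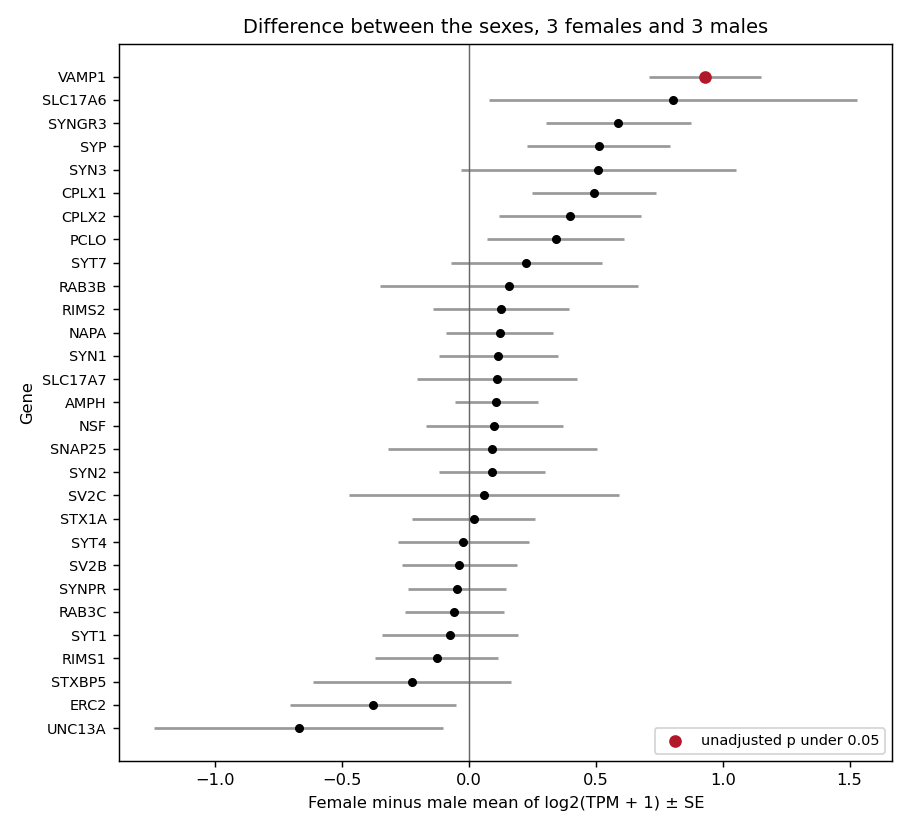
Female minus male difference of the mean log2(TPM + 1) with its SE from limma for the 29 genes tested, ordered by size (3 females and 3 males). Red marks VAMP1, the gene with an unadjusted p under 0.05, at 0.93; no gene passed the adjusted threshold.

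Over the 29 genes the female mean of log2(TPM + 1) was the higher in 20 and the male mean in 9. On the same scale the female mean was the higher in 46.9% of all loci tested and in 59 of the 95 genes tested of a longer presynaptic list. The median difference was 0.11 on the log2 scale, against -0.029 over all loci tested. With single animals left out it moved, to 0.07 without female 1, 0.02 without female 3, 0.23 without female 4, 0.05 without male 1, 0.06 without male 4 and 0.13 without male 5. It was 0.03 after quantile normalization, 0.05 with stranded loci only and 0.0019 with the animal number as a replicate block. The blocked fit takes its sex difference from numbers 1 and 4 only, so female 3 and male 5 do not bear on it. SNAP25 differed by 0.09 with an SE of 0.41 and SYN1 on the X chromosome by 0.12 with an SE of 0.23. The lowest difference was that of UNC13A, at -0.67 with an SE of 0.57. With 3 animals a group, a difference within these errors was not detectable.

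Spread among animals was smaller for the list than for the loci as a whole. The median coefficient of variation was 24.9% for the 29 genes and 62.3% over all loci tested, whose median level of 2.41 TPM was well below the 199.7 TPM of the 29 genes. By gene, the coefficient ran from 6.73% for SYN1 to 75.2% for SLC17A6 among genes at 1 TPM or more.

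Female 3 had the highest value of the 6 animals for 13 of the 29 genes and the lowest for none. Female 4 had the lowest for 11, against 26.0% of all loci tested, the highest such share of the 6 animals. These genes were SYNPR, SV2B, SV2C, SYT1, SYT4, STXBP5, RAB3C, RIMS2, UNC13A, ERC2 and NSF. In the same animal SYN1, SYP, SYNGR3 and CPLX1 were at their highest. Male 1 had the lowest value for another 11, among them SYN1, SYN2, SYP, SYNGR3, SYT7, STX1A and SLC17A7, and the highest for SNAP25, ERC2 and SLC17A6. The list therefore did not move as a block from animal to animal. Across all loci tested, female 3 was highest in 16.7% and male 1 lowest in 19.3%.

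**Figure D5:**
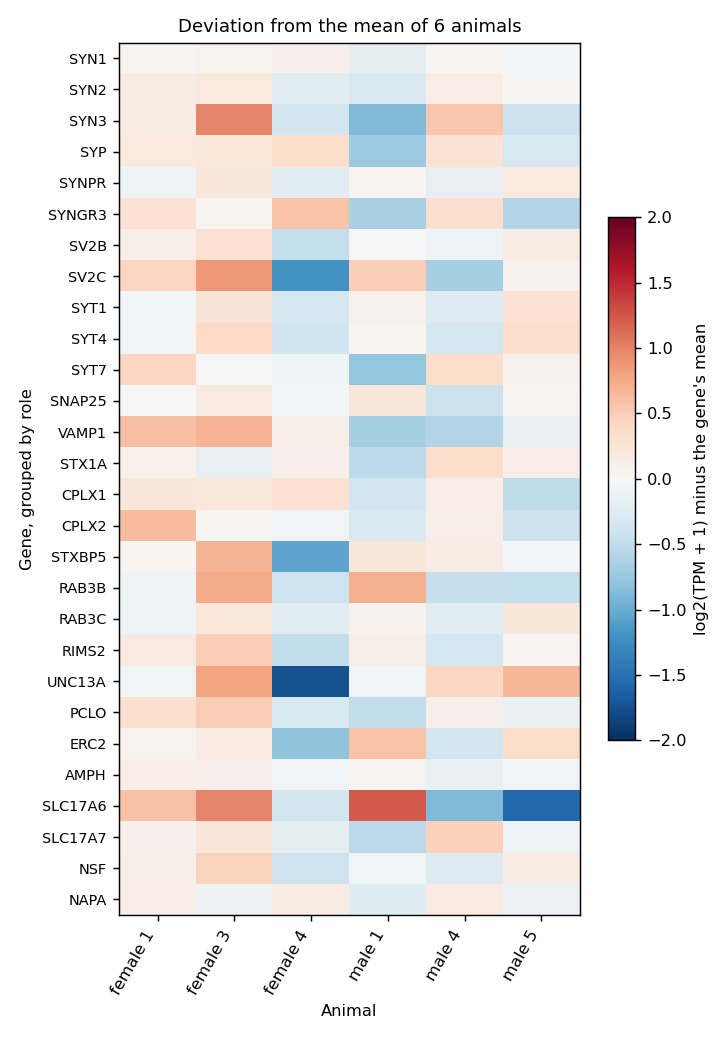
Deviation of each animal from the mean of 6 animals, in log2(TPM + 1), for the 28 genes with a mean of 1 TPM or more (rows, by role) and the 6 animals (columns); red is above and blue below the gene's mean. Female 3 is mostly red, and female 4 is blue for SV2C, STXBP5, UNC13A and ERC2 but red for SYP and SYNGR3.

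Other genes of the presynaptic terminal were read from a longer list of 128. Of these 101 had a row and 94 were above 0 in every animal. Among those with the highest means was AP2M1, a clathrin adaptor subunit, at 1044, 982 and 1083 TPM in females 1, 3 and 4 and at 913, 996 and 788 TPM in males 1, 4 and 5. Its mean was 968 TPM, and the sexes overlapped. Subunits or partners of the proton pump that acidifies vesicles were also among them, ATP6V0D1 at 890.3 TPM, ATP6AP1 at 756 TPM and ATP6V0C at 748 TPM. The growth cone protein GAP43 had a mean of 665 TPM, the endocytic protein PACSIN1 639 TPM, the vesicle membrane protein SCAMP5 634 TPM and the calcium sensor NCS1 611 TPM.

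Of the longer list 95 genes were tested between the sexes, and none passed the adjusted threshold. At an unadjusted p under 0.05 the female mean was the higher in 2, RAB11B, a recycling GTPase, and CPLX3, a complexin. RAB11B was at 275, 233 and 273 TPM in females 1, 3 and 4 and at 155, 237 and 159 TPM in males 1, 4 and 5, so male 4 lay among the females. Its difference was 0.53 with an SE of 0.21 and an adjusted p by limma of 0.929. The median difference over the 95 genes was 0.07 and their median coefficient of variation 20.4%.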

How the data were processed

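Polyadenylated RNA of the PFC was sequenced in pairs by the authors. Per the labels and methods, the authors aligned them with HISAT2 (version 2.2.1) to TS_3.0 and assembled, merged and measured loci with StringTie (version 2.2.1) in each of the 6 animals. The deposited tables hold coverage, FPKM and TPM for 95863 loci, all made by the authors with StringTie. TPM was the unit analysed, FPKM an alternative, and the deposited coverage served to compare depth: its highest ratio to FPKM, which scales with mapped fragments, was 5.04 to 5.65 over the animals and was reached, within 0.1%, by 21.1% to 52.1% of the loci at 1 FPKM or more. No read counts are given, so no counting intervals were computed and precision rests on the spread among animals. The authors' own test on counts was not repeated.

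TPM was summed over rows of 1 gene ID and sequence. Female and male means of log2(TPM + 1) were compared two-sided with limma (version 3.58.1, R version 4.3.3), without covariates and with the trend of variance on mean, on 30238 loci at 0.1 TPM or more in 3 or more animals. P-values were adjusted by Benjamini-Hochberg within autosomes, within X and, since SYP lies on one, within contigs (27, 1 and 1 of the genes), with a threshold of 0.1. A segment of X and one of chromosome 26 were kept out of the autosomal and X classes. P-values measure the spread among 3 and 3 animals. The script was tested on simulated data. Tables were read with Python 3.11.15 and pandas 2.3.3.

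The genes and lists were chosen with earlier results of these data known. Every gene found is given its level, each leader of a role its value in every animal, and the 3 genes with the smallest p their sex statistics; of the longer presynaptic list, the 10 highest means fall under the rule, and some results of that list are not reported here. RAB11B, CPLX3, SLC18A3, RIMS3, VAMP4, STMN2, NEFM, MAP2, MOG, CLDN11, TUBB3, CLDN5 and the genes listed by animal were chosen for naming once values had been seen. Marker lists covered neurons, excitatory and inhibitory neurons, glia, endothelium, striatum, hindbrain and thalamus. Alternatives were other filters, pseudocounts, scalings, FPKM, loci kept apart, no trend, a replicate block, joint adjustment, gene-like copies added and each animal left out.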

Additional observations from a re-analysis of the deposited data

Results flagged for a closer look

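RIMS1 in male 5 stood apart from the other animals. Its row was at 0.495 TPM there, against 0 to 0.176 TPM in the other 5 animals, and its gap to the nearest animal was 0.644 of the whole range, above Dixon's limit for 6 samples. The 29 genes tested were each examined in this way over the 6 animals, and chance alone passes about 1 in 20. The row lies on the opposite strand within RIMS1li1, which was also highest in male 5, at 187 TPM.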

How the results depend on the processing

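No gene of the list passed the adjusted threshold under any of the alternatives run. The count at an unadjusted p under 0.05 was 1, and 2 with a filter at 1 TPM (5.87% of all loci) and with FPKM (5.31%). It ranged from 1 to 4 when each animal was left out in turn, with 3.46% to 9.43% of all loci and the highest count without male 4. The difference of SYNGR3 was 0.59, and -0.049 without males 1 and 5, which removes its 2 lowest animals, leaves 1 male assumed to vary like the females, and so fixes the direction of this change. The median level was 177.7 TPM, and 45.0 on the FPKM scale. The summed level was 13243 TPM, 14331 TPM with stranded loci only, 15365 TPM with gene-like copies added, and 3348 on the FPKM scale, where the change of scale sets the value. The count of families led by 1 gene stayed at 7 with copies added, with other leaders in the SYT4 with SYT11 and RIMS families. With animal number as a replicate block, the median sex difference was 0.0019, against 0.11 without the block and 0.02 to 0.23 with each animal left out, and 0 genes passed the adjusted threshold. Numbers 3 and 5 each occur in a single sex, so the blocked difference rests on numbers 1 and 4 only. The labels do not say that a number marks shared origin. Correlations of the deviations were -0.0048 for female and male 1 and 0.038 for female and male 4. Both lay within the range of pairs with different numbers, -0.062 to 0.061. TPM keeps no depth, so for genes listed at 0 no limit could be set.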
